A study of Mus musculus with 2 samples.

Results

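The nuclei described here carried transcripts of Engrailed genes or of the genes beside them, in whole fetal mouse brain. They were selected on 4 genes: a nucleus was a member when it held at least 2 UMIs (unique molecular identifiers, each standing for 1 captured RNA molecule) of Cnpy1, 2610027F03Rik, En1 and En2 together and no UMI of a Hox gene. The Hox genes, which mark the brain behind the isthmus, served to exclude caudal hindbrain nuclei. The rule took 201 of 13366 nuclei, after barcodes with fewer than 500 genes read or with more than 5% mitochondrial UMIs had been dropped. Of these, 20 of 6686 came from the wildtype-labelled library and 181 of 6680 from the knockout-labelled library. Members with at least 2 UMIs of Slc1a3, Fabp7, Hes5 and Sox2 together are called progenitors here (11 and 98 nuclei), and the rest of the members (9 and 83 nuclei) are given apart from them.

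Nuclei had been isolated from frozen whole fetal brain of wildtype mice and of mice with a knockout of Cav1, the gene of the membrane protein caveolin 1, and captured with 10x Genomics 3′ chemistry. Each genotype has 1 library, and the labels give no sex, strain, day of gestation or number of animals, nor the design of the knockout allele. No difference between the libraries therefore has a replicate check, and every interval below is a 95% interval that covers counting error only. Over all kept nuclei the 2 libraries held 17205381 (wildtype-labelled) and 19878903 UMIs (knockout-labelled), with medians of 2133.5 and 2366 per nucleus. Cav1 itself had 71 and 80 UMIs in the kept nuclei of the 2 libraries, so its level did not check the labels. Of its neighbours, Cav2 had 19 and 764 UMIs and the antisense transcript Gm15581 had 62 and 1834. The members were deeper than the nuclei around them, with medians of 3841.5 UMIs against 2132 for other nuclei in the wildtype-labelled library and 3564 against 2347 in the knockout-labelled library. Of 43 barcodes deposited in both libraries, 10 were kept in both and none of these was a member. A doublet caller, Scrublet, set no working threshold, so doublets were kept. The highest 8% of its scores in each library included 3 (15%) and 30 (16.6%) of the members.

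The isthmic organizer lies at the border of midbrain and hindbrain and patterns both sides through secreted FGF and Wnt proteins. Its territory is set where Otx2 expression in front meets Gbx2 expression behind, and it is held by the Pax2, Pax5 and Pax8 factors together with the homeodomain factors En1 and En2. Engrailed genes stay on in several descendants of this region, among them the dopaminergic neurons of the ventral midbrain and neurons of the cerebellum and the tectum.

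The 4 genes of the rule lie in 2 places of the genome, so that they are not 4 independent markers. In the GENCODE annotation of the GRCm39 build, En1 lies at chr1:120530108-120535721 on the plus strand, and the long noncoding gene 2610027F03Rik starts 6364 bases downstream of it at chr1:120542086-120618133 on the same strand. En2 lies at chr5:28370689-28377195 on the plus strand, and Cnpy1, which encodes a protein known to act on FGF receptor signalling, lies 28487 bases away at chr5:28405683-28450804 on the minus strand. Cyp26b1, whose enzyme breaks down retinoic acid, was the fifth marker named for these nuclei but no part of the rule, and lies at chr6:84548396-84570890. The upstream windows of the chromosome 1 neighbours and of Cyp26b1 are shown because the report turns on whether these genes were read in the same nuclei. They are the 250 bases before the annotated start, 5′ to 3′ on the strand of the gene, from RefSeq on the GRCm38.p6 build, with CG pairs in capitals. Such a window was found for 4 of the 5 markers. The windows are chr1:120602237-120602486 for En1, chr1:120614425-120614674 for 2610027F03Rik and chr6:84593811-84594060 for Cyp26b1.
En1: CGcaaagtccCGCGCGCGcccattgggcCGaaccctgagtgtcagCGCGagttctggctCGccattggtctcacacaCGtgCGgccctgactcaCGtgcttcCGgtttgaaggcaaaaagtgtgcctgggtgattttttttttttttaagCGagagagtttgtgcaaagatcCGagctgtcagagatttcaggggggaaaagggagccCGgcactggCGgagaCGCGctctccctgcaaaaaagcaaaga
2610027F03Rik: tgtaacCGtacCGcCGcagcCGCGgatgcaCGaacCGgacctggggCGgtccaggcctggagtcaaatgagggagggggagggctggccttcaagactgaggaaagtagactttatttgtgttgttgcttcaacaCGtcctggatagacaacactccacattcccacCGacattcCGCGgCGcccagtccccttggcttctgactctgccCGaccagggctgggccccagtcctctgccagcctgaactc
Cyp26b1: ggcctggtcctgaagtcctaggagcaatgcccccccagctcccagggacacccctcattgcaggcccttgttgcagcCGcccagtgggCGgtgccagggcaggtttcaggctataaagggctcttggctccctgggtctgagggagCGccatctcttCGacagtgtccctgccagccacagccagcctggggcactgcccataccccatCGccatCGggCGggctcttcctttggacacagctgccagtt
The En1 window held 19 CG pairs and that of 2610027F03Rik 14, while Cyp26b1 had 7, beside a median of 6 over 32851 windows of the same length. On neither strand of the 3 windows was there a match to TAATTA, a core sequence of homeodomain factors found in 4.84% of all windows. The nuclear receptor sequence AGGTCA, found in 14% of them, and the Wnt effector sequence CTTTGA, found in 13.8%, had no match there either.

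By the rule itself, many members stood at its threshold. A sum of exactly 2 was found in 11 of 20 wildtype-labelled members and in 84 of 181 knockout-labelled ones. Just outside were 109 and 341 nuclei with a sum of 1 and no Hox UMI. Sums of 4 or more occurred in 1 wildtype-labelled and 58 knockout-labelled nuclei, and the highest were 5 and 14. In the knockout-labelled members, Cnpy1 had 219 UMIs in 121 nuclei, 2610027F03Rik 229 UMIs in 103 nuclei, En1 107 UMIs in 73 nuclei and En2 63 UMIs in 51 nuclei. The corresponding counts in the 20 wildtype-labelled members were 16, 11, 13 and 11 UMIs. Neither Engrailed gene was read in 6 of the 20 and 75 of the 181 members, which the rule took for their Cnpy1 or 2610027F03Rik UMIs.

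**Figure D1:**
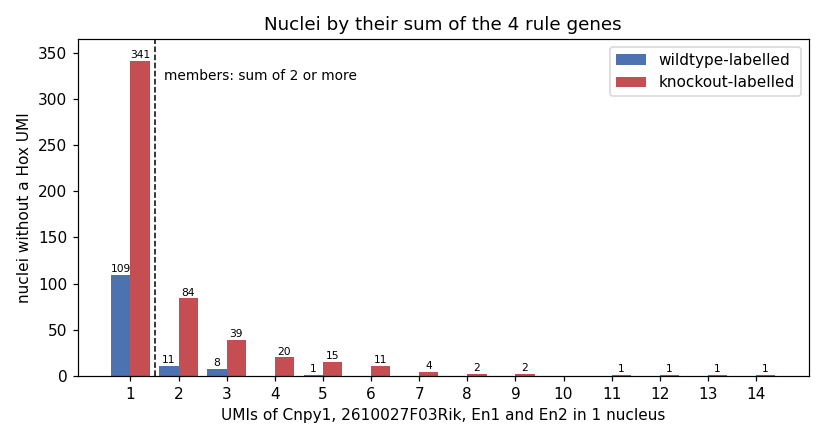
Number of nuclei without a Hox UMI (vertical axis) by their summed UMIs of Cnpy1, 2610027F03Rik, En1 and En2 (horizontal axis), with the wildtype-labelled library in blue and the knockout-labelled library in red; sums of 0 are left out. The dashed line marks the threshold: 109 and 341 nuclei lie just below it, and 58 knockout-labelled nuclei but 1 wildtype-labelled nucleus reach a sum of 4 or more.

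The members made up 0.299% of wildtype-labelled nuclei (0.183 to 0.462%) and 2.71% of knockout-labelled nuclei (2.33 to 3.13%), a difference of 2.41 percentage points (2.01 to 2.84). With each nucleus thinned to 1000 UMIs before the rule was applied, and with 846 and 1111 shallower nuclei left out, 3 of 5840 (0.0514%) and 52 of 5569 (0.934%) still met it. The knockout-labelled library was thus the richer in members at equal depth as well. Other markers of the posterior brain moved with it: 0.314% of the wildtype-labelled nuclei held a Hox UMI, against 5.27% of the knockout-labelled ones. The genotype and any other difference between the 2 libraries cannot be told apart.

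How far the 2 loci were read in the same nuclei was taken from the gene pair that had not chosen them. Both pairs belong to the rule, which was set with earlier results of these data known. The values below are therefore a description and no independent support for the rule. When knockout-labelled nuclei were chosen on En1 and 2610027F03Rik alone (92 nuclei), the chromosome 5 pair of En2 and Cnpy1 stood at 203 CPM (UMIs of a gene or gene group per 1000000 UMIs of the summed nuclei), against 20.6 CPM in the other nuclei. This is a 9.87-fold difference (7.9 to 12.2), carried by 53 of the 92 nuclei. Chosen on En2 and Cnpy1 (85 nuclei), the chromosome 1 pair stood at 181 against 20.3 CPM, which is 8.91-fold (7.14 to 11), with UMIs in 46 nuclei. The 2 loci were therefore read together in the same knockout-labelled nuclei well beyond counting error. In the wildtype-labelled library, 9 nuclei chosen on the chromosome 1 pair held 5 UMIs of the other pair, a 19.2-fold difference (6.06 to 46.5). The 9 nuclei chosen on the chromosome 5 pair held 1 UMI of the chromosome 1 pair, a ratio of 6.37 whose interval of 0.159 to 36.7 includes equality. Both pairs were read in 8 of 20 and 103 of 181 members. Split by gene type in place of locus, 7 wildtype-labelled nuclei chosen on En1 and En2 held 0 UMIs of Cnpy1 and 2610027F03Rik (interval 0 to 36.1-fold). The 9 chosen on Cnpy1 and 2610027F03Rik held 3 UMIs of En1 and En2, which is 9.21-fold (1.87 to 27.7). The same splits in the knockout-labelled library gave 9.87-fold (7.84 to 12.3) and 5.46-fold (4.19 to 7.04).

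**Figure D2:**
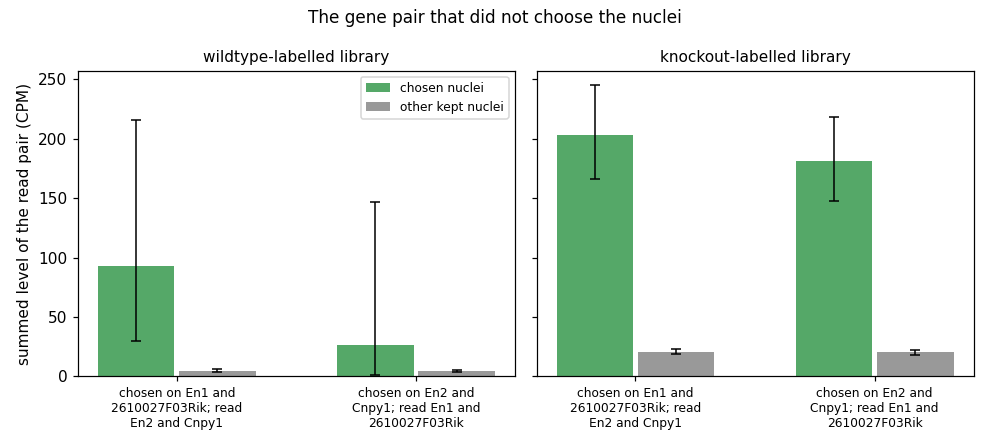
Summed level in CPM (vertical axis) of the gene pair that was not used to choose the nuclei, in chosen nuclei (green) and other kept nuclei (grey) of each library, with 95% counting intervals as error bars. In the knockout-labelled library the pair not used for choosing stands at 203 and 181 CPM in chosen nuclei against 20.6 and 20.3 CPM in the others. The wildtype-labelled bars of chosen nuclei rest on 5 and 1 UMIs.

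The label of a boundary was only partly borne out by its other markers. Nuclei with at least 3 UMIs of a short list of cortical genes, among them Neurod2, Neurod6 and Tbr1, which should lack Engrailed, supplied 2 of 20 and 28 of 181 members. A UMI of a rule gene was found in 2.25% of such cortical nuclei and in 1.86% of the other nuclei of the wildtype-labelled library (medians of 2664 and 2030.5 UMIs). In the knockout-labelled library the shares were 7.85% and 8.23% (3082 and 2245 UMIs). At 1000 UMIs per nucleus the knockout-labelled shares were 1.86% (1.1 to 2.92%) and 4.65% (4.06 to 5.3%), and the wildtype-labelled ones were 0.686% (0.296 to 1.35%) and 0.92% (0.667 to 1.24%), whose intervals overlap. At that depth the share with a rule gene UMI was thus higher outside the cortical nuclei in the knockout-labelled library. In the wildtype-labelled library it was not apart beyond counting error. By the rule itself, at full depth, 2.82% (1.88 to 4.05%) of knockout-labelled cortical nuclei were members, against 2.69% of the other nuclei. The wildtype-labelled values were 0.167% (0.0202 to 0.601%) and 0.328%. Without the cortical nuclei, Pax5 stood at 115 CPM in the other 153 knockout-labelled members against 14.7 CPM outside them, Cyp26b1 at 174 against 39.7 CPM and Mecom at 385 against 69.4 CPM, so that these 3 differences were at least as large without them. The members are for that reason called Engrailed-locus nuclei below, and not boundary cells.

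The secreted signals of the organizer were almost unread. Fgf8, Fgf17 and Wnt1 had 0 UMIs in the 98 knockout-labelled progenitor members and 1 UMI each in the 83 others. In the wildtype-labelled members Fgf8 and Fgf17 were at 0, and Wnt1 had 1 UMI, in a progenitor. All 5 ligands on the list, with Fgf18 and Fgf15, summed to 10.7 CPM in the knockout-labelled progenitor members against 15.1 CPM in other progenitors. Gbx2, the hindbrain side of the border, had 3 UMIs in all 181 knockout-labelled members and 1 UMI in the 20 wildtype-labelled ones. None of these genes reached 20 UMIs, observed or expected from the other nuclei, so that no difference was read for them.

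Of the Pax factors of the isthmus, Pax5 was higher in the members of both libraries under the rule as given, and Pax2 in the progenitor members. Pax5 had 58 UMIs in 19 of 98 knockout-labelled progenitor members, 77.6 CPM against 10.2 CPM in other progenitors, a log2 ratio of 2.93 (2.45 to 3.41). In the 83 other members of that library it had 32 UMIs in 14 nuclei, 89.6 against 16 CPM and a log2 ratio of 2.49 (1.88 to 3.05). The wildtype-labelled Pax5 reads came from few nuclei: 13 UMIs in 2 progenitors, 8 of them in 1 nucleus, and 24 UMIs in 2 of the rest, 16 of them in 1 nucleus. Their log2 ratios to other nuclei were 5.0 (4.0 to 5.89) and 6.66 (5.91 to 7.36). Any Pax5 UMI was found in 4 of 20 and 33 of 181 members, 20% and 18.2%, and in 1.04% and 1.83% of the other nuclei. At 1000 UMIs per nucleus the shares were 20% and 6.78% of members against 0.584% and 0.668% of other nuclei.

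Pax2 had 39 UMIs in 6 knockout-labelled progenitor members, 52.2 against 7.47 CPM, a log2 ratio of 2.80 (2.21 to 3.37). The wildtype-labelled progenitor members held 3 Pax2 UMIs in 1 nucleus, against 4 UMIs in 2980 other progenitors, a log2 ratio of 6.58 (3.81 to 9.14). Pax8 stayed under the 20 UMIs, with 9 UMIs in 5 knockout-labelled members and 1 in a wildtype-labelled member. At least 1 of Pax2, Pax5 and Pax8 was read in 4 of 20 members (20%, 5.73 to 43.7%) and in 42 of 181 (23.2%, 17.3 to 30%), beside 1.16% and 3.23% of the other nuclei. Most members of each library held no UMI of these Pax genes. Where members were chosen on Cnpy1 and 2610027F03Rik alone, the Pax5 log2 ratio was 1.82 in knockout-labelled progenitors and 0.89 in the rest. The wildtype-labelled members chosen in that way held 0 Pax5 UMIs, and their progenitors held 0 Pax2 UMIs, so that the result in both libraries was lost under that choice. Otx2 was read in 46 knockout-labelled members. Its log2 ratio to other nuclei was 0.86 (0.42 to 1.28) in progenitors and 1.61 (1.07 to 2.11) in the rest.

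Across all genes, calls required a 2-fold difference between members and other nuclei of the same kind in each of the 2 libraries. Among progenitors, 31 of 8073 genes were higher in members (0.384%) and 56 were lower (0.694%). Among the rest, 25 of 4756 were higher (0.526%) and 47 lower (0.988%). Counting intervals lay off 0 in both libraries for 18 and 9 of the progenitor genes and for 20 and 14 of the others. The genes named below come from the 15 highest and 5 lowest of these by the smaller of the 2 effects. A gene could enter with 20 UMIs through its level in the members alone, as 9030622O22Rik, Ttc6, Dnaaf3 and others did. The higher genes therefore describe the members and are no support for their label.

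The highest of the named genes in the progenitor members was a noncoding transcript. This gene, 9030622O22Rik, which lies 2228 bases from Foxa2, had 15 UMIs in 5 wildtype-labelled and 37 UMIs in 10 knockout-labelled progenitor members, log2 ratios of 4.90 (3.99 to 5.73) and 3.45 (2.80 to 4.10). Ttc6, whose nearest coding gene is Foxa1 at a distance of 17197 bases, had 9 UMIs in 4 and 15 UMIs in 5 nuclei, with log2 ratios of 5.0 and 2.12. Its antisense neighbour 4921518K17Rik had 4.25 and 2.15. 1700042O10Rik, which lies antisense within Ddc, the gene of the enzyme that makes dopamine from its precursor, had 4.32 and 2.01, but -0.32 in the knockout-labelled library where members were chosen on Cnpy1 and 2610027F03Rik alone. Foxa1 and Foxa2 themselves, pioneer factors of the floor plate and of dopaminergic neurons, had 1 and 2 UMIs in the knockout-labelled progenitor members. The dopaminergic marker list that holds both stood at 91 against 85.8 CPM there, a log2 ratio of 0.08 (-0.29 to 0.44), and at 326 against 84.5 CPM (1.95, 1.26 to 2.56) in the wildtype-labelled progenitors, from 22 UMIs. The sources used here do not say that counting used the strand, so reads of overlapping antisense partners cannot be told apart.

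Further genes higher in both sets of progenitor members had other roles. Mecom, a zinc-finger transcription factor, had 227 UMIs in 33 knockout-labelled nuclei, 304 against 56.9 CPM and a log2 ratio of 2.42 (2.19 to 2.64). In the wildtype-labelled library it had 14 UMIs, 12 of them in 1 nucleus, and a log2 ratio of 1.98 (1.09 to 2.74). Otx2os1, a noncoding gene that overlaps Otx2 on the opposite strand, had log2 ratios of 1.80 (1.22 to 2.32) and 1.72 (1.52 to 1.92) in the wildtype- and knockout-labelled libraries. 4930438E09Rik, antisense within Ebf2, had 1.86 and 1.53. Ratios of 1.05 to 1.41 in the knockout-labelled library were those of P4ha3, a prolyl hydroxylase subunit of collagen, Sntb1, a syntrophin, Gm534, Pde3a, a cyclic nucleotide phosphodiesterase, Man1a, a Golgi mannosidase, and Dnaaf3, a dynein assembly factor. Each of these 6 rested on 3 to 6 UMIs in 1 to 3 wildtype-labelled nuclei. The direction of some of these genes depended on the choice of rule genes. With Cnpy1 and 2610027F03Rik alone, 4930438E09Rik, Man1a and Pde3a were at -0.36, -0.45 and -0.48 in the wildtype-labelled library, from 1 UMI each. With En1 and En2 alone, Otx2os1 was at -1.37 in that library, and in the knockout-labelled library Dnaaf3 was at -0.64 and Mecom at 0.90. The wildtype-labelled progenitor members chosen on En1 and En2 held 0 UMIs of Mecom, 4930438E09Rik, 4921518K17Rik, P4ha3, Gm534 and Dnaaf3. P4ha3 and Dnaaf3 were also at 0 there without the highest 8% of doublet scores, Dnaaf3 without the cortical nuclei, and 4930438E09Rik with a rule gene sum of at least 3.

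The 5 lowest genes of the progenitor members included housekeeping genes and haemoglobin. Snrpd3, a spliceosome core protein, had 0 wildtype-labelled UMIs, at least 1.67-fold lower than in other progenitors when 0 is set to a floor of 3 UMIs. The upper 95% bound of that log2 ratio was closer to equality, at -0.44. The same floor applies to each such fold below. In the knockout-labelled library Snrpd3 had a log2 ratio of -1.57 (-2.33 to -0.90). Abracl had -2.80 and -1.35, and Ndufa5, a subunit of respiratory complex I, had 0 wildtype-labelled UMIs, at least 1.58-fold lower, and -1.17. Atp5e, a subunit of ATP synthase, had -2.45 and -1.17. Hbb-bs, a beta globin of red blood cells, stood at 252 against 563 CPM and at 221 against 474 CPM, with log2 ratios of -1.16 (-1.94 to -0.48) and -1.10 (-1.33 to -0.88). The whole list of 6 erythroid markers stood at 518 against 1047 CPM and at 434 against 876 CPM. The other progenitors were shallower, with medians of 2281 and 2523 UMIs against 4513 and 4190.5 in the members. Among nuclei with at least 2500 UMIs, 28 genes were lower in place of 56, and the part of depth in the remaining ones was not tested.

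The highest genes of the members outside the progenitor rule included Ebf2, Ddc and transcripts antisense within them. Ebf2, a transcription factor of early midbrain and cerebellar neurons, had 196 UMIs in 36 of 83 knockout-labelled nuclei, 549 against 113 CPM and a log2 ratio of 2.28 (2.05 to 2.50). The wildtype-labelled members had 37 UMIs in 4 of 9 nuclei, 19 of them in 1 nucleus, and 4.09 (3.57 to 4.58). Gm6878 and 4930438E09Rik, both antisense within Ebf2, had log2 ratios of 4.78 and 3.34 in the wildtype-labelled and 3.21 and 2.39 in the knockout-labelled library. Ebf3, of the same family, had 2.29 and 1.40. With Cnpy1 and 2610027F03Rik alone as the rule, Ebf2 had 1 UMI and 0.27 in the wildtype-labelled library, and with a rule gene sum of at least 3 Ebf3 was at -0.82 there. With that sum the wildtype-labelled members of this kind held 0 UMIs of Ebf2, Gm6878, 4930438E09Rik, 1700042O10Rik and 1700120O09Rik, which leaves the knockout-labelled side alone.

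Ddc had 8 UMIs in 4 wildtype-labelled and 13 UMIs in 6 knockout-labelled nuclei, with log2 ratios of 5.78 (4.47 to 6.90) and 2.68 (1.67 to 3.60), and 1700042O10Rik had 5.32 and 3.56. 9030622O22Rik, beside Foxa2, had 5.22 and 2.77, with all 7 wildtype-labelled UMIs in 1 nucleus. Gfra1, a receptor for the neurotrophic factor GDNF, had 2.93 (1.96 to 3.75) and 1.65 (1.26 to 2.02). Klhl1, an actin-binding protein of neurons, had 4.18 and 1.52, and Otx2os1 had 1.69 and 1.93, but -0.66 in the knockout-labelled library with En1 and En2 alone. The noncoding genes 1700120O09Rik and 9130015G15Rik and the follistatin-like gene Fstl4 were also among the 15, at 3.28 and 2.50, 1.71 and 1.37, and 1.72 and 1.22. In 1 wildtype-labelled nucleus each lay all 15 UMIs of Otx2os1, all 5 of Fstl4 and 20 of the 32 of Klhl1. The Otx2os1 nucleus was also the one with the 9030622O22Rik UMIs. The wildtype-labelled side was at 0 UMIs for 9030622O22Rik, Otx2os1 and Fstl4 with En1 and En2 alone, and for 1700042O10Rik and 1700120O09Rik with Cnpy1 and 2610027F03Rik alone.

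Of the 5 lowest genes of these members, 4 had 0 UMIs in the wildtype-labelled library. Dlx6os1, the noncoding transcript of the Dlx5 and Dlx6 locus of inhibitory forebrain neurons, had 1 wildtype-labelled UMI (log2 ratio -3.00, -8.30 to -0.52) and -1.99 (-2.71 to -1.36) in the knockout-labelled library. Gm29260 was at 0 wildtype-labelled UMIs, at least 2.05-fold lower, and -2.11 in the knockout-labelled library. Tiam2, an activator of the GTPase Rac, was at 0 against 584 CPM, at least 6.34-fold lower, and -1.30. Sox1ot, around the neural gene Sox1, and Itpr1, the calcium channel of the endoplasmic reticulum, were also at 0 wildtype-labelled UMIs, and had -1.30 and -1.63 in the knockout-labelled library.

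**Figure D3:**
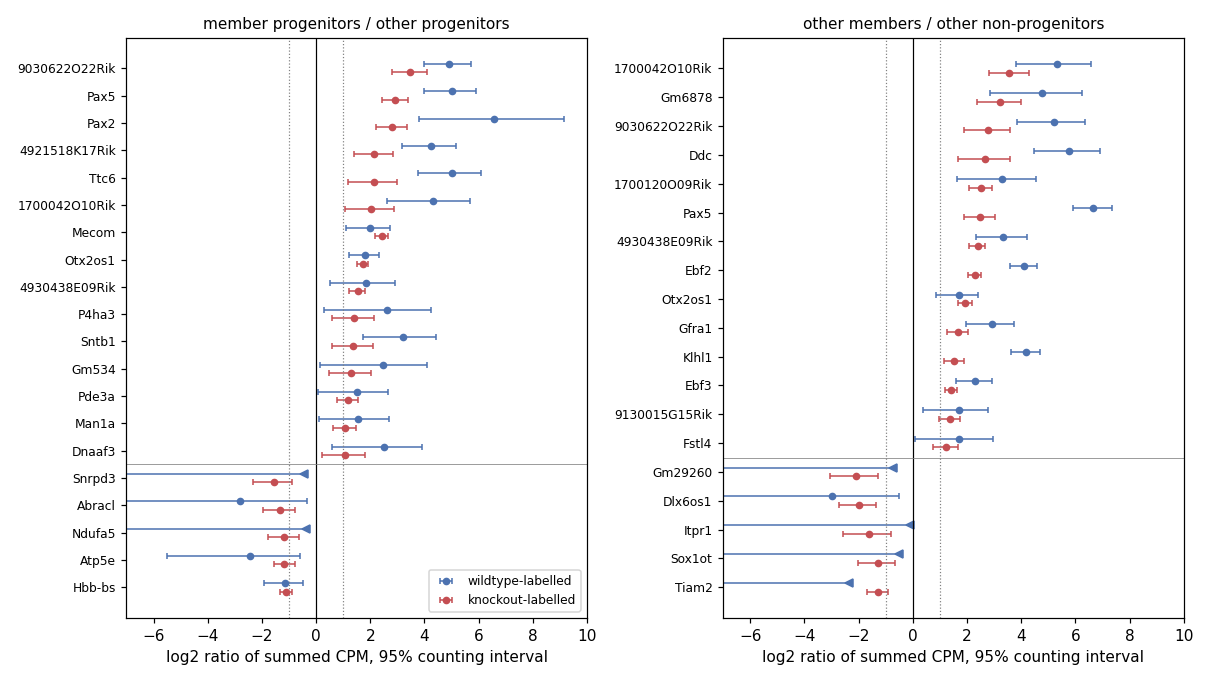
Log2 ratio of summed CPM (horizontal axis), members over other nuclei of the same kind, for the named genes among the 15 highest and 5 lowest of the progenitor members (left) and of the other members (right), in the wildtype-labelled (blue) and knockout-labelled (red) libraries. Bars are 95% counting intervals, dotted lines mark 2-fold, and arrowheads at the upper bound of the interval mark genes with 0 UMIs in the wildtype-labelled members; Pax5 reaches 2.93 and 2.49 in the knockout-labelled library.

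The knockout-labelled library alone, with 181 members, allowed more genes to be read. It had 59 of 7661 genes higher (0.77%) and 136 lower (1.78%) in progenitor members, and 67 of 4408 higher (1.52%) and 67 lower (1.52%) in the rest. The lists fixed for this tissue were read against these shares, with a median log2 ratio over all tested genes of 0.02 in both sets. A gene could reach the minimum of 20 UMIs through its level in the members alone, as Pax5, Pax2, Pax7 and, in the rest, Pax3 did. Lists with such genes are therefore given by the sum of all their genes. The 8 isthmic transcription factors summed to 232 against 78 CPM in progenitors (log2 ratio 1.57, 1.33 to 1.81) and to 286 against 90.2 CPM in the rest. The 12 midbrain-type factors summed to 2216 against 2047 CPM in progenitors (0.11, 0.04 to 0.19) and to 2545 against 1909 CPM in the rest (0.41, 0.32 to 0.51), and single genes of the list stood further apart. Pax7 had a log2 ratio of 2.0 (1.44 to 2.52) and Pax3 of 1.24 (0.87 to 1.6) in progenitors, both factors of the dorsal neural tube and tectum, and Tfap2b and Ebf2 were at 1.03 and 1.02. In the rest of the members Pax3 was at 2.59 (1.95 to 3.19), from 29 UMIs in 14 nuclei. The Pax7 value and this Pax3 value passed the minimum through the members alone and are a description only. Meis2, which is also made in the forebrain, had -0.16 and -0.08. In the wildtype-labelled progenitor members the same list summed to 1288 against 2209 CPM (-0.78, -1.10 to -0.47), and Meis2 was at -1.26 (-1.67 to -0.88).

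In the knockout-labelled progenitor members none of the 6 genes at the minimum on the cerebellar and rhombomere 1 list was 2-fold apart, with a median of -0.09. In the wildtype-labelled ones 1 of 6 was higher and 1 lower, with a median of -0.52. The rhombic lip factor Atoh1 and the cerebellar GABAergic factor Ptf1a had 0 UMIs in all knockout-labelled members. In the knockout-labelled rest, Lhx9 was higher at 1.41 (1.02 to 1.78) and Zic4 lower at -1.45 (-2.67 to -0.46), among 5 genes with a median of 0.36. The 15 genes of that list summed to 1814 against 1230 CPM there (0.56, 0.44 to 0.68). Thalamic-type factors summed to 1582 against 952 CPM (0.73, 0.61 to 0.86) and Purkinje lineage markers to 2783 against 1836 CPM (0.60, 0.51 to 0.69). These ratios were larger than that of the midbrain-type sum. Granule and rhombic lip markers were at -0.06 (-0.34 to 0.21). In progenitor members the cerebellar and thalamic-type sums were at -0.03 and -0.01. FGF receptors did not reach 2-fold in either knockout-labelled set, with Fgfr2 at 918 against 872 CPM in progenitors, while 1 of 3 was lower in the wildtype-labelled progenitor members. The 8 FGF feedback and target genes summed to 237 against 198 CPM in knockout-labelled progenitor members (log2 ratio 0.26, 0.03 to 0.48) and to 249 against 182 CPM in the rest (0.45, 0.12 to 0.76), and no single gene of the list at the minimum was past 2-fold there, while 1 was lower in the wildtype-labelled rest. Etv5, a transcription factor switched on by FGF, had 0.46 (-0.28 to 1.12) in progenitors.

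The retinoic acid list of 16 genes had 2 at the minimum in knockout-labelled progenitors. Cyp26b1 was higher, at 158 against 51.2 CPM (1.62, 1.33 to 1.91), and its relatives Cyp26a1 and Cyp26c1 had 0 UMIs there. Of the cell types that do not derive from the neural tube, meningeal markers summed to 46.8 against 133 CPM in the same nuclei and endothelial markers to 169 against 144 CPM.

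Forebrain factors were lower in sum in the members but were still read there. Their 14 genes summed to 843 CPM in knockout-labelled progenitor members against 1195 CPM in other progenitors, a log2 ratio of -0.50 (-0.62 to -0.39), and to 873 against 1325 CPM in the rest (-0.60, -0.77 to -0.44). The wildtype-labelled values were 725 against 1497 CPM and 1044 against 1671 CPM. Dlx1 was lower at -2.31 (-3.63 to -1.26) in progenitor members, and Neurod6 and Neurod2 were at -1.15 and -1.01 in the rest. Lhx2, a forebrain factor also made in tectal neurons, was higher in the rest, at 171 against 84 CPM (1.02, 0.62 to 1.40).

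Dopaminergic markers were read in some members of both libraries. At least 2 UMIs of Th, Slc6a3, Nr4a2, Pitx3, Foxa1, Lmx1a, Ddc, Slc18a2 and Foxa2 were found in 10 of 20 wildtype-labelled members (50%, 27.2 to 72.8%) and in 21 of 181 knockout-labelled members (11.6%, 7.33 to 17.2%). The shares in other nuclei were 3.93% and 4.43%. The members were deeper than those nuclei, and the part of depth in these shares was not tested. Of the dopaminergic nuclei, 2 wildtype-labelled and 7 knockout-labelled members also held at least 3 cortical marker UMIs. In the members outside the progenitor rule the 9 genes summed to 1014 against 85.1 CPM in the wildtype-labelled library, a log2 ratio of 3.57 (3.02 to 4.08), from 33 UMIs. The knockout-labelled values were 213 against 82.6 CPM and 1.36 (1.00 to 1.71). The list of serotonergic markers, which shares Ddc and Slc18a2, was also higher in these members. It stood at 369 against 67.3 CPM (2.45, 1.49 to 3.27) in the wildtype-labelled library and at 118 against 71.8 CPM (0.71, 0.22 to 1.16) in the knockout-labelled one. Slc6a3, the dopamine transporter, had 17 UMIs in 3 of the 83 knockout-labelled nuclei, 11 of them in 1 nucleus, beside 2 UMIs in 3151 other non-progenitor nuclei. Th, the rate-limiting enzyme of dopamine synthesis, had 2 UMIs in 2 wildtype-labelled members and 3 UMIs in 2 knockout-labelled ones. Nr4a2, a factor needed by these neurons, had 10 UMIs in 4 of the 9 wildtype-labelled nuclei and a log2 ratio of 3.68 (2.60 to 4.59). It had 11 UMIs in 8 of the 83 knockout-labelled nuclei, and 0.56 (-0.47 to 1.43).

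The gene groups overlapped in part within the knockout-labelled members. Of the 42 nuclei with a Pax2, Pax5 or Pax8 UMI, 5 had 2 or more dopaminergic marker UMIs, 8 had 2 or more Ebf2 UMIs and 8 had a Cyp26b1 UMI. Ebf2 at 2 or more UMIs was found in 58 members and Cyp26b1 in 29, with 9 nuclei in common. At least 3 forebrain factor UMIs were found in 23 of the 42 Pax nuclei, 29 of the 58 Ebf2 nuclei, 10 of the 21 dopaminergic nuclei and 8 of the 29 Cyp26b1 nuclei, beside 77 of all 181 members. All 28 cortical marker nuclei reached that sum by definition, since those markers are on the forebrain list. Whether these overlaps differ from those of unrelated genes was not tested. A further 53 of the 181 members had none of the Pax, dopaminergic, Ebf2 and Cyp26b1 groups and no cortical marker sum of 3, with forebrain factors not considered. Among the 20 wildtype-labelled members, 1 nucleus held both a Pax UMI and dopaminergic markers, and 4 held none of the same groups. With most groups read in a minority of nuclei at this depth, a nucleus without the UMI cannot be taken to lack the transcript.

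**Figure D4:**
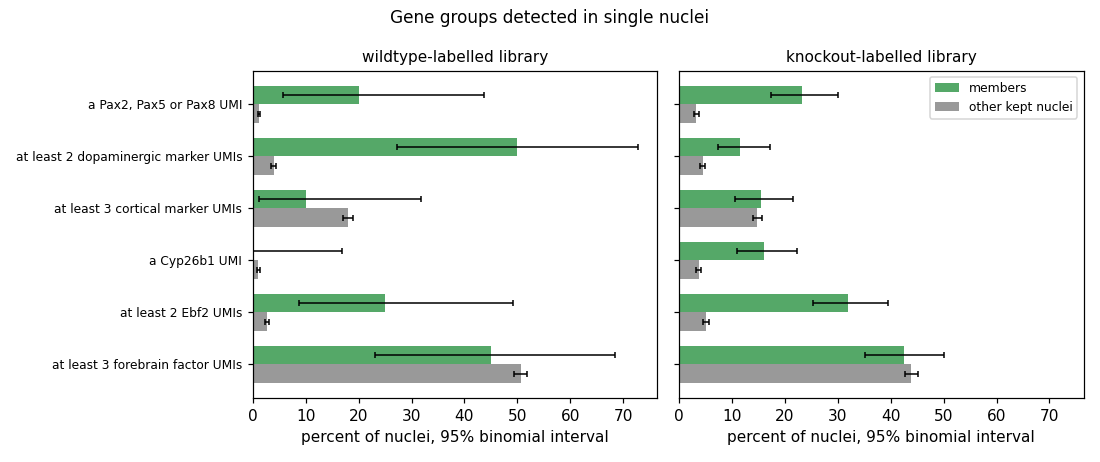
Percent of members (green) and of other kept nuclei (grey) in which each gene group was detected (horizontal axis), for the wildtype-labelled (left) and knockout-labelled (right) library, with exact 95% binomial intervals. Pax genes and Ebf2 stand above the other nuclei in both panels, dopaminergic markers reach 50% of the 20 wildtype-labelled members, and cortical markers are at 10% and 15.5% of members against 18% and 14.8% of other nuclei.

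Levels outside the rule did not all follow the rule gene sum. In the knockout-labelled library Mecom stood at 58.3, 62.7, 161, 171 and 400 CPM at sums of 0, 1, 2, 3 and at least 4, and Otx2os1 at 98.2, 212, 436, 253 and 352 CPM. Efna5, an ephrin that guides retinal axons in the tectum, stood at 375, 791, 1312, 983 and 1937 CPM over the same sums. Pax5 was highest at a sum of 2, with 147 CPM (111 to 192), against 45.5 at a sum of 1 and 45.8 (27.6 to 71.6) at 4 or more. Cyp26b1 was as high just outside the rule as inside it, at 159 CPM (137 to 184) for a sum of 1, then 123, 91.6 and 137 CPM. Forebrain factors stood at 1305, 969, 761, 1065 and 774 CPM. The higher sums also came from deeper nuclei, with medians of 3040.5 UMIs at a sum of 2 and 4712.5 at 4 or more.

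**Figure D5:**
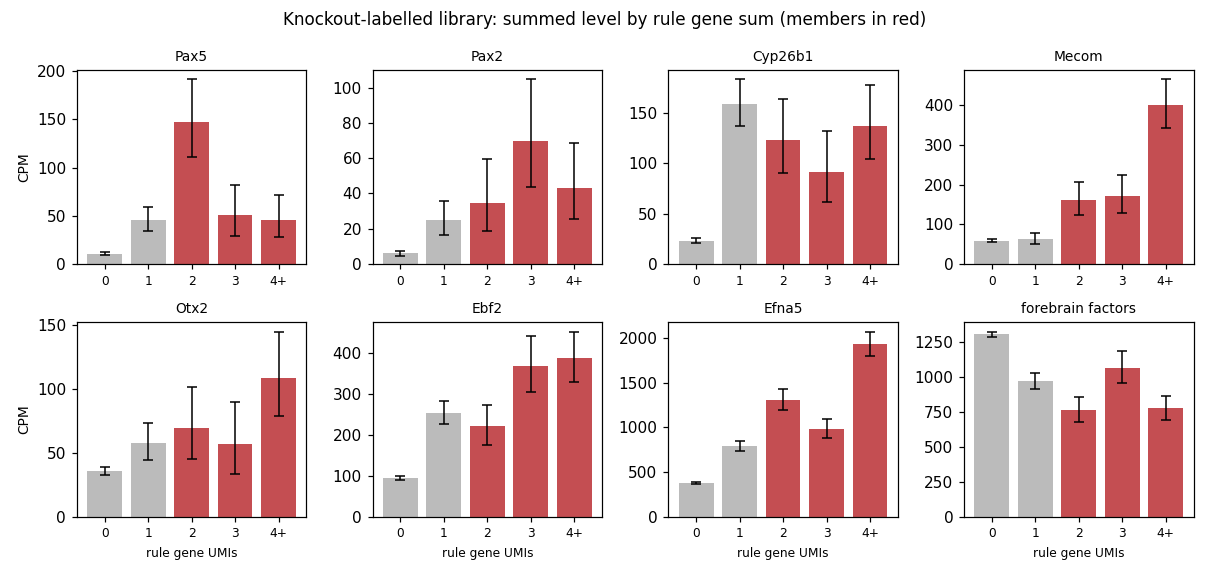
Summed level in CPM (vertical axes, each starting at 0) of 7 genes and of the forebrain factor list in knockout-labelled nuclei without a Hox UMI, by rule gene sum (horizontal axes), with members in red, nuclei below the threshold in grey and 95% counting intervals. Mecom goes from 58.3 CPM at a sum of 0 to 400 CPM at 4 or more, whereas Pax5 is highest at a sum of 2 and Cyp26b1 at a sum of 1.

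The progenitor name was also only partly borne out. In knockout-labelled members the 8 radial glia markers outside the rule stood at 883 CPM in progenitors and 423 CPM in the rest (2.09-fold), and 10 genes of dividing cells at 529 and 193 CPM (2.74-fold). Notch1, the receptor that keeps progenitors undifferentiated, had 80.3 and 25.2 CPM, and Ednrb 66.9 and 14 CPM. Neuron markers stood at 7162 CPM in these progenitors and 8496 CPM in the rest, however, and 66 of the 98 held at least 10 neuron marker UMIs. Other knockout-labelled progenitors stood at 6946 CPM (log2 ratio 0.04, 0.00 to 0.08), so that this level was not particular to the members. All 12 radial glia markers, with those of the rule, stood at 1453 CPM in the progenitor members against 2023 CPM in other progenitors (-0.48, -0.57 to -0.39). The wildtype-labelled ratio was -0.17 (-0.43 to 0.08). Fabp7 alone brought 34 of the 98 into the set, and 8 of the 11 in the wildtype-labelled library. Of the members, 55% (31.5 to 76.9%) and 54.1% (46.6 to 61.6%) were progenitors by the rule, beside 44.7% and 51.5% of other nuclei. Thinned to 1000 UMIs, the shares were 20% and 15.8% of members and 17.5% and 19.1% of other nuclei, so that no difference in progenitor share was detectable at equal depth.

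Cyp26b1 and Mecom stood higher in the knockout-labelled progenitor members than in the rest, and Cyp26b1 did so outside the members as well. Cyp26b1 had 118 UMIs in 25 of 98 knockout-labelled progenitor members and 14 UMIs in 4 of 83 others, 158 against 39.2 CPM (log2 ratio 2.01, 1.21 to 2.93). In other nuclei of that library it stood at 51.2 CPM in progenitors and 15.2 CPM in non-progenitors. Mecom stood at 304 CPM in progenitor members and 148 CPM in the rest. Outside the members it was not higher in progenitors, at 56.9 CPM against 61.5 CPM over all other kept nuclei. Among neuronal genes, Ebf2 stood at 217 CPM in progenitors and 549 CPM in the rest, and Slc17a6, the glutamate transporter of subcortical excitatory neurons, at 97.7 and 190 CPM. Gad2, which makes the inhibitory transmitter GABA, stood at 162 and 154 CPM. Pax5 was not apart beyond counting error, at 77.6 and 89.6 CPM (-0.21, -0.85 to 0.46).

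Set beside other posterior nuclei of the knockout-labelled library, the members stood higher in Pax5 and Cyp26b1, lower in Pax8 and not apart beyond counting error in Pax2. The 85 nuclei with at least 2 Hox UMIs had Pax5 at 18.3 CPM (8.77 to 33.7) and Cyp26b1 at 36.6 CPM (22.4 to 56.5), against 81.5 CPM (65.5 to 100) and 120 CPM (100 to 142) in all 181 members. Their Pax2 stood at 69.5 CPM, against 48 in members (log2 ratio -0.54, -1.16 to 0.11). Pax8 stood at 8.15 CPM in members, from 9 UMIs, against 23.8 CPM, from 13 UMIs (-1.55, -2.95 to -0.21). Zic1 was lower in members, at 87.8 against 177 CPM, and Otx2os1 higher, at 352 against 43.9 CPM. Hoxb3os, a noncoding transcript that overlaps Hoxb2 and Hoxb3, had 4 UMIs in members and 29 UMIs in the 85 nuclei, 3.62 against 53.1 CPM. Both sets were chosen on their Hox UMIs, so this difference is no independent check of the choice. Against all other kept nuclei, at 5.22 CPM, Hoxb3os was not apart beyond counting error (log2 ratio -0.53, -2.43 to 0.87). Mecom stood at 137 CPM in the 85 nuclei, against 254 CPM in members (log2 ratio 0.89, 0.51 to 1.27). Ebf2 stood at 183 against 324 CPM (0.82, 0.50 to 1.16), so that neither was 2-fold apart. Both were lower over all other kept nuclei, at 61.5 and 109 CPM, and so were not particular to the members. The 235 non-member nuclei with at least 2 UMIs of Tfap2d, a factor of tectal neurons, had Pax5 at 3.14 CPM, Mecom at 16.5 CPM and Ebf2 at 141 CPM. Meis2 stood at 1504 CPM in members and at 1478 and 1546 CPM in the 2 other sets, log2 ratios of 0.02 (-0.10 to 0.15) and -0.04 (-0.14 to 0.05).

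Differences between the 2 libraries within the members are limited by the 20 wildtype-labelled nuclei. Of 7533 genes with at least 20 UMIs in progenitor members, 1805 were 2-fold apart (24%), and of 4326 in the rest 1364 (31.5%). The same genes were 2-fold apart in the other nuclei in 18 and 10 cases. A zero in the wildtype-labelled members accounted for 368 and 348 of the tested genes, and intervals lay off 0 for 289 and 237 of the genes apart. Those counts are a description of 2 libraries and not of the genotypes.

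Cyp26b1 headed the genes higher in the knockout-labelled progenitor members. It had 0 UMIs in the 20 wildtype-labelled members, where the floor of 3 counts stands for 15% of nuclei, and 132 UMIs in 29 of 181 knockout-labelled members. Its level of 120 CPM was at least 3.99-fold higher than the level of 3 UMIs, the floor used for a count of 0, in the wildtype-labelled members (30 CPM). In progenitor members alone it was at least 3.56-fold higher. Other progenitors differed in the same direction, with 51.2 against 8.23 CPM and a log2 ratio of 2.64 (2.28 to 3.01). The next 4 genes, all at 0 UMIs in the wildtype-labelled set, were Igfbp5, Lingo1, Htr2c and Lrrn3, at least 2.35-, 2.14-, 2.11- and 2.11-fold higher. Of their knockout-labelled UMIs, 32 of 78, 9 of 71, 39 of 70 and 7 of 70 lay in 1 nucleus each. In other progenitors these 4 had log2 ratios between -0.13 and 0.43.

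Lower in knockout-labelled progenitor members were Ttc6 (-2.73, -4.02 to -1.36) and Lmx1a (-2.53, -3.65 to -1.34), a factor of the midbrain floor and roof with 11 UMIs in 5 wildtype-labelled and 21 UMIs in 5 knockout-labelled nuclei. Gm45323, Gm973 and Neto1, at -2.71, -2.70 and -2.57, completed the 5. In other progenitors all 5 lay between -0.11 and 0.14. Among the rest of the members, Tcf7l2, a Wnt effector of thalamic and tectal neurons, had 141 UMIs in 31 knockout-labelled and 0 in wildtype-labelled nuclei, at least 4.28-fold higher, although other non-progenitor nuclei stood at 305 and 335 CPM. In the progenitor members Tcf7l2 was read in both libraries, at 252 CPM (17 UMIs in 5 wildtype-labelled nuclei) and 293 CPM. Kcnq5, Zfp804a, Brinp3 and E130114P18Rik followed, at least 3.86-, 3.25-, 3.04- and 3.01-fold higher. Of their knockout-labelled UMIs, 76 of 127, 14 of 107, 37 of 100 and 22 of 99 lay in 1 nucleus each. Nr4a2 was lower at -3.32 (-4.69 to -1.93) and Pax5 at -3.04 (-3.85 to -2.21), although in other non-progenitor nuclei Pax5 was higher in the knockout-labelled library (1.13, 0.68 to 1.59). Etl4, Prr16 and Mcc were at -3.58, -3.41 and -3.11, with 12 of 12, 29 of 33 and 16 of 22 wildtype-labelled UMIs in 1 nucleus each, and with En1 and En2 alone as the rule Prr16 had 0 wildtype-labelled and 31 knockout-labelled UMIs. Single nuclei thus carried much of the wildtype-labelled side of these differences, and for some genes, such as Kcnq5, much of the knockout-labelled side.

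At the Cav1 locus, the members followed the rest of the library. Cav1 had 0 and 4 UMIs in wildtype- and knockout-labelled members, Cav2 had 0 UMIs and 44 UMIs in 28 nuclei, and Gm15581 had 1 UMI and 103 UMIs in 43 nuclei. Cav2 stood at 39.8 CPM (28.9 to 53.5) in the knockout-labelled members, and 3 UMIs in the wildtype-labelled members would stand at 30 CPM.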

How the data were processed

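The data are UMI counts per gene and nucleus, deposited by the authors as 1 filtered matrix for each library. Per the file headers they were made with cellranger 6.1.1, while the submitters' processing notes name Cell Ranger 3.0.1 with STAR and GRCm39. The counting annotation and its use of strand are not given in the sources used here. From these counts, barcodes with at least 500 genes and at most 5% mitochondrial UMIs were kept, and members were chosen by the UMI rule given above. The members and gene lists were chosen with earlier results of these data known.

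Counts were summed over the nuclei of a set and scaled to CPM. Ratios have exact conditional 95% intervals, CPM exact Poisson intervals and shares exact Clopper-Pearson intervals, computed with scipy 1.17.1 and statsmodels 0.14.6. They cover counting error only, since each genotype has 1 library and no test was made. A gene entered a comparison with at least 20 observed or expected UMIs over both libraries. A count of 0 was set against a floor of 3 UMIs, so that a fold given as at least some value is a ratio to that floor and not a 95% bound. Named genes were the 15 highest and 5 lowest past 2-fold in both libraries with both intervals off 0, ranked by the smaller effect, without the rule, Hox and mitochondrial genes. Between libraries, 5 in each direction were named. Some genes that enter these lists and counts are not reported here. The scripts were tested on simulated data. Alternatives covered the rule genes and their sum, the gene and UMI minimums, the Hox limit, doublet scores and the scaling. Gene positions came from GENCODE M39 and upstream windows from RefSeq.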

Additional observations from a re-analysis of the deposited data

Results flagged for a closer look

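Of the genes tested, 3 lay past 2-fold in opposite directions in the 2 libraries, with both counting intervals off 0; the differences themselves were not tested. In the progenitor members Vstm2a had a log2 ratio to other progenitors of 1.72 (0.26 to 2.86) in the wildtype-labelled library, from 6 UMIs in 2 nuclei. In the knockout-labelled library it had -1.01 (-1.94 to -0.22), from 13 UMIs in 10 nuclei. In the other members Etl4 had 2.11 (1.15 to 2.92), with all 12 wildtype-labelled UMIs in 1 nucleus, and -1.26 (-2.27 to -0.41) in the knockout-labelled library. Htr2c, a serotonin receptor, had 1.58 (0.36 to 2.56), with all 8 wildtype-labelled UMIs in 1 nucleus, and -2.58 (-4.21 to -1.35) in the knockout-labelled library.

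The limit on Hox genes left out 11 knockout-labelled nuclei that had 2 or more UMIs of the 4 rule genes, and 0 wildtype-labelled ones.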

How the results depend on the processing

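No paired analysis was possible because each genotype has 1 library. Of the named gene values under the alternatives, 759 stayed within their counting interval and kept their direction, 108 moved beyond it, 9 reversed and 24 could not be formed because the members held 0 UMIs. Another scaling (the median of the ratios over genes) and lifting the Hox limit moved none of them beyond the interval. Limits on nuclei with at least 2500 UMIs, the removal of cortical nuclei and calls in the knockout-labelled library alone were chosen after seeing the data.

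The share of members was 0.299% (wildtype-labelled) and 2.71% (knockout-labelled). A rule gene sum of 3 gave 0.135% and 1.45%, a sum of 1 gave 1.93% and 7.81%, En1 and En2 alone 0.105% and 0.734%, Cnpy1 and 2610027F03Rik alone 0.135% and 1.84%, and thinning to 1000 UMIs 0.0514% and 0.934%. In the knockout-labelled library, minimums of 1000 and 200 genes gave 3.33% and 1.73%. Its progenitor share was 21.2% when nuclei were thinned before the rule.

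With a minimum of 50 UMIs per gene, 11 genes were higher and 17 lower in progenitor members, 15 higher and 16 lower in the rest, and 512 and 321 apart between libraries. With 10 UMIs the counts were 77 and 96, 72 and 103, and 3241 and 2684. A rule gene sum of 3 gave 18 higher and 85 lower in progenitors, and 27 lower and 726 apart in the rest. Cnpy1 and 2610027F03Rik alone gave 85 lower in progenitors and 27 lower in the rest, and En1 and En2 alone gave 386 apart in the rest. A minimum of 1000 genes gave 32 lower in progenitors, and no Hox limit gave 88. Among nuclei with at least 2500 UMIs, 28 were lower in progenitors, and 16 higher and 30 lower in the rest. Without cortical nuclei, 889 were apart in the rest. The knockout-labelled library alone gave 59 higher and 136 lower in progenitors and 67 higher in the rest. Fewer nuclei or fewer tested genes enter most of these counts, and their cause was not otherwise tested.

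Reversed log2 ratios under Cnpy1 and 2610027F03Rik alone were, in progenitors, -0.32 for 1700042O10Rik (knockout-labelled) and -0.36, -0.45 and -0.48 for 4930438E09Rik, Man1a and Pde3a (wildtype-labelled). Under En1 and En2 alone they were -0.64 for Dnaaf3 in knockout-labelled progenitors, -1.37 and -0.66 for Otx2os1 in wildtype-labelled progenitors and the knockout-labelled rest, and 2.97 for Prr16 between libraries in the rest, where 0 wildtype-labelled UMIs were set to 0.5. With a rule gene sum of 3, Ebf3 was at -0.82 in the wildtype-labelled rest. The members held 1 to 3 UMIs of the gene in these cases, except Otx2os1 in the rest with 7 and Prr16 with 31.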

Other observations

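Barcodes that failed a filter also held rule gene UMIs: 40 in 3077 wildtype-labelled and 142 in 4131 knockout-labelled barcodes. Of these barcodes, 2 in each library had a rule gene sum of at least 2. Efna5, which was not among the named genes and was singled out after its values were seen, had UMIs in 151 of 181 knockout-labelled members, 1452 against 410 CPM in all other nuclei of that library (log2 ratio 1.82, 1.75 to 1.90).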
